A study of Mus musculus and Homo sapiens
Mus musculus with 14 samples.

Results

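The 9 genes described here encode transcription factors of bipolar and horizontal cells, the interneurons that receive the output of photoreceptors in the mouse retina. They were chosen by name, with earlier results of these data known, as Vsx1, Lhx4, Bhlhe23, Irx6 and Prdm8 (bipolar cells) and Prox1, Lhx1, Onecut1 and Onecut2 (horizontal cells). All 9 symbols were found among the 24460 genes of the layer table and among the 18415 genes of the amacrine table.

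Light-Seq reverse transcribes RNA in place in a fixed section with a random-ended primer and then crosslinks a DNA barcode to the cDNA of chosen cells with patterned light, so that cells picked by position or stain can be read out together by sequencing. Retinas came from wild-type CD1 mice, an outbred strain, in the third postnatal week, with no transgene and no treatment, and were fixed, frozen and cryosectioned. In the first experiment, 4 sections of 1 animal were each barcoded in 3 places. These were the outer nuclear layer (ONL), which holds rod and cone somata, the bipolar cell layer (BCL), a band of the inner nuclear layer, and the ganglion cell layer (GCL). In the second, 5 sections were stained for tyrosine hydroxylase (TH), the enzyme that starts dopamine synthesis, and stained amacrine cells (TH+) and unstained amacrine cells (TH-) were barcoded in each, the TH+ pools holding only a handful of cells. The methods speak of a single source animal for Light-Seq on this tissue. Each library is a pool of many cells or of a few, so fewer cells of a type and less RNA per cell cannot be told apart. P-values measure the spread between sections and not a spread between animals.

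Bipolar cells carry signals from rods and cones to the inner retina, as rod bipolar cells or as one of many cone bipolar types, and their somata fill much of the inner nuclear layer. Horizontal cells are few, sit at the outer edge of that layer and feed back on photoreceptor terminals. Identity in both classes is set and held by homeodomain, basic helix-loop-helix and zinc-finger transcription factors, several of which are used again in ganglion or amacrine cells.

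The layer libraries held 193869 to 801105 unique molecular identifiers (UMIs, each counted as 1 captured cDNA) and the amacrine libraries 30317 to 200344. Levels are given as CPM, the UMIs of a gene over the UMIs of its library scaled to the same total in every library, and per kilobase of the authors' gene length where genes are compared with each other. Marker lists followed the layer names. The summed level of 12 bipolar effector markers (receptor, channel and calcium-binding genes such as Grm6, Trpm1 and Cabp5) was 7886 ± 376 CPM (SD, n = 4) in the BCL, 777 ± 139 CPM in the ONL and 463 ± 63.7 CPM in the GCL. That of 9 rod markers was 66781 ± 6271 CPM in the ONL and 15863 ± 3726 CPM in the BCL, and that of 10 ganglion cell markers 7108 ± 382 CPM in the GCL and 565 ± 107 CPM in the BCL. The BCL libraries also carried 8 Müller glia markers at 8039 ± 431 CPM, against 1363 ± 259 CPM in the ONL and 2106 ± 176 CPM in the GCL. In the amacrine experiment, 5 markers of dopaminergic cells, Th among them, summed to 3247 ± 1013 CPM (SD, n = 5) in TH+ and 187 ± 50.4 CPM in TH- libraries.

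The stretches before the start sites of 2 bipolar factors, Vsx1 and Bhlhe23, and of 2 horizontal cell factors, Lhx1 and Onecut1, are printed so that members that moved together between layers can be compared at the sequence level. Each is the 250 bases upstream of the canonical transcript (GENCODE vM39, GRCm39), written 5′ to 3′ on the strand of the gene. Capitals mark an E-box, CANNTG, or the homeodomain core TAAT on either strand. The windows are chr2:150531281-150531530 on the minus strand for Vsx1, chr2:180418694-180418943 on the minus strand for Bhlhe23, chr11:84416369-84416618 on the minus strand for Lhx1 and chr9:74768868-74769117 on the plus strand for Onecut1.
Vsx1: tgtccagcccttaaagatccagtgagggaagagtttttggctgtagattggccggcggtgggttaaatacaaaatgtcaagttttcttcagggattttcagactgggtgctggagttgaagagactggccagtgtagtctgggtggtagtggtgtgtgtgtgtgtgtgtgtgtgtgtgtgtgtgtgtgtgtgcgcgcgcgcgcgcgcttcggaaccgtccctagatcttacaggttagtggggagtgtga
Bhlhe23: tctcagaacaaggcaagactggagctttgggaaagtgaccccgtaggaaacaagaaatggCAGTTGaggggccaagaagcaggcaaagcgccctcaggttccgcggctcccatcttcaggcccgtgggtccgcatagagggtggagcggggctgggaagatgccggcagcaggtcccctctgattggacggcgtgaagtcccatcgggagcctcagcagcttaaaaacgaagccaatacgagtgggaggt
Lhx1: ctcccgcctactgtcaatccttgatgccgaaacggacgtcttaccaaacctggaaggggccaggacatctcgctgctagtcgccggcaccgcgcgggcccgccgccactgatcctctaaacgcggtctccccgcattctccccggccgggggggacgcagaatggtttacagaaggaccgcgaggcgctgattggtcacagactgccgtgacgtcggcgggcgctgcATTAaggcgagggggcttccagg
Onecut1: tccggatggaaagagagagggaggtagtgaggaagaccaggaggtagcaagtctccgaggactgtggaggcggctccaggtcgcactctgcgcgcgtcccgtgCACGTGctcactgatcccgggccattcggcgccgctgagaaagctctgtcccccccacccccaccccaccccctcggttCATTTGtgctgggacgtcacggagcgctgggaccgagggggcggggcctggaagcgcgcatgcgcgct

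Both strands of the same window of all 9 genes were searched for 5 short motifs. CANNTG, which is its own reverse complement and is the core bound by basic helix-loop-helix factors, was present in 6 of 9 windows, and in 64.8% of 21770 windows of protein-coding genes. The short homeodomain core TAAT or its complement ATTA was in 1 of 9 windows, that of Lhx1, and in 55.2% of all windows. TAATCC, the core of OTX2 and CRX, TAATTA and the ONECUT core ATCGAT were in 0 of 9 windows, and in 7.0%, 5.18% and 0.781% of all windows. The first pair of these 3 motifs contains TAAT. No window of the 9 genes held both a match to CANNTG and a match to TAAT, and those of Vsx1 and Lhx4 held neither.

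**Figure D1:**
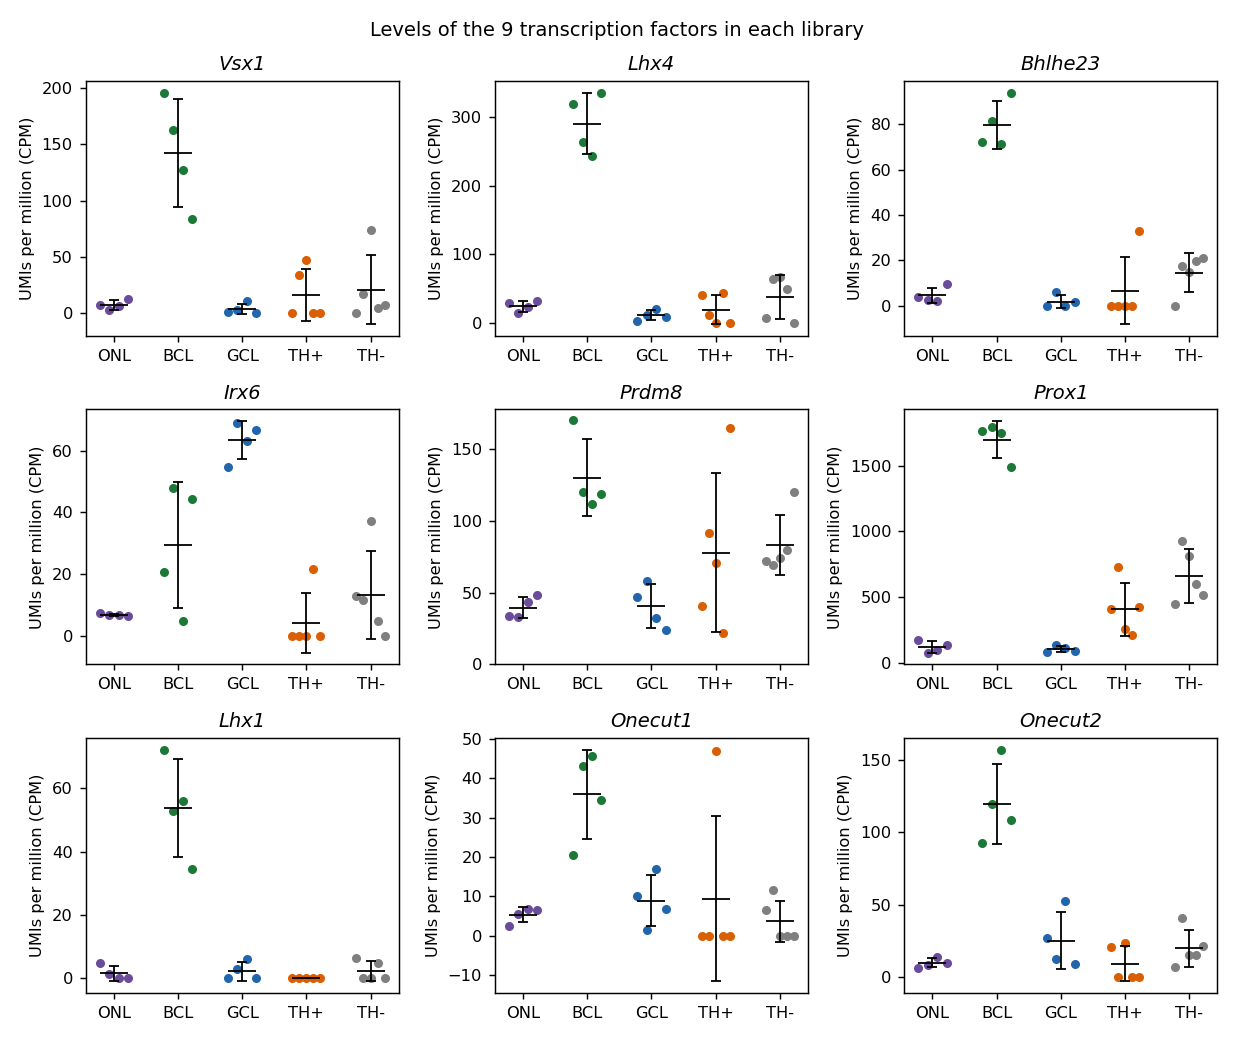
Each panel plots the level of 1 gene in CPM (vertical axis, linear and different between panels) in every library of the 5 groups. Points are sections, horizontal marks the mean and bars 1 SD (4 sections for ONL, BCL and GCL, 5 for TH+ and TH-). The BCL points lie above the other layers for 8 genes, and the GCL points lie highest for Irx6.

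With edgeR's quasi-likelihood test and Benjamini-Hochberg adjustment over the 11324 genes tested in the layers, all 9 genes were higher in the BCL than in the ONL, beside 18.2% of all genes tested higher in the BCL and 18.5% lower there. Against the GCL, 8 of 9 were higher in the BCL and 1, Irx6, was higher in the GCL, beside 16.1% and 20.4% of all genes called in these directions. These splits depended on the scaling. With column totals in place of TMM, 2889 genes were higher in the BCL and 1198 in the ONL, against 2056 and 2096, and the comparison with the GCL gave 2353 genes toward the BCL and 1872 away from it, against 1826 and 2310, while no call of the 9 genes changed. Between the ONL and the GCL, 2 (Irx6 and Onecut2) were called toward the GCL, 1 (Lhx4) toward the ONL and 6 did not pass the test, beside 32.2% of all genes called toward the GCL and 29.3% toward the ONL. The median log2 fold change of the 9 genes was 3.39 for the BCL over the ONL and 3.81 for the BCL over the GCL, and that of all genes tested was -0.09 and -0.02. Of the 9 genes, Bhlhe23 and Lhx1 reached the count filter only through their BCL libraries, so a difference was built into their being tested. The BCL lay above the ONL with no overlap of section ranges for 8 of 9 genes, as did 22.1% of all genes tested. It lay above the GCL without overlap for 8 of 9, beside 18.7% of all genes, and below it without overlap for 1, Irx6, beside 17.4%. The GCL lay above the ONL without overlap for 1 of 9, also Irx6, beside 32.8% of all genes, and below it for 0 of 9, beside 22% of all genes.

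Vsx1 (chr2:150522622-150531280, minus strand, GRCm39) encodes a paired-like homeodomain factor of cone bipolar cells. Its level in sections 1 to 4 was 196, 163, 127 and 84.0 CPM in the BCL, 7.49, 2.77, 6.85 and 12.9 CPM in the ONL, and 1.27, 3.00, 10.8 and 0 CPM in the GCL. The lowest BCL section still stood above every ONL and GCL section, and within the BCL section 1 was highest and section 4 lowest. The mean of 143 ± 48.1 CPM (SD, n = 4) in the BCL compared with 7.50 ± 4.16 CPM in the ONL and 3.76 ± 4.83 CPM in the GCL. The log2 fold change of the BCL was 4.04 (SE 0.36, edgeR's quasi-likelihood test, adjusted p = 5.9e-14) over the ONL and 4.99 (SE 0.38, adjusted p = 2.8e-16) over the GCL. Its ONL and GCL ranges overlapped, with 15 and 10 UMIs in all. The log2 fold change of the GCL over the ONL was -0.95 (SE 0.64, adjusted p = 0.192), and -2.15 (adjusted p = 0.0207) when section 3, the GCL library with 7 of those 10 UMIs, was left out.

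Lhx4 (chr1:155573777-155627430, minus strand, GRCm39) encodes a LIM homeodomain factor of cone bipolar cells. It stood at 319.8, 264, 244 and 336 CPM in the BCL of sections 1 to 4, at 28.7, 13.8, 22.8 and 32.2 CPM in the ONL and at 2.55, 12, 20.0 and 8.54 CPM in the GCL. All BCL sections were far above the others, and in every section the ONL value was above the GCL value, although the 2 ranges overlapped. Means were 291 ± 44.1, 24.4 ± 8.04 and 10.8 ± 7.28 CPM (SD, n = 4 each). The BCL exceeded the ONL by 3.29 on the log2 scale (SE 0.22, adjusted p = 4.6e-18, edgeR) and the GCL by 4.60 (SE 0.25, adjusted p = 5.8e-22). Lhx4 was the only one of the 9 genes called higher in the ONL than in the GCL, with a log2 fold change of the GCL over the ONL of -1.31 (SE 0.36, edgeR's adjusted p = 0.0014), and this call was lost without section 1 (-0.73, adjusted p = 0.108). The summed bipolar effector markers moved the same way, at 9.85% of their BCL level in the ONL and 5.87% in the GCL. Of the 12 markers, 7 were called toward the ONL and 0 toward the GCL, beside 29.3% and 32.2% of all genes tested. Their part in the Lhx4 difference was not tested.

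Bhlhe23 (chr2:180416174-180418693, minus strand, GRCm39) encodes a basic helix-loop-helix factor needed for the maturation and survival of rod bipolar cells. It was measured at 72.2, 81.6, 71.1 and 93.9 CPM in the BCL, at 3.74, 2.77, 2.28 and 9.67 CPM in the ONL and at 0, 5.99, 0 and 1.71 CPM in the GCL of sections 1 to 4. The BCL sections lay close together, with a coefficient of variation of 13.3%, and apart from all other sections. The ONL held 9 UMIs and the GCL 5, and their ranges overlapped. Fold changes of the BCL were 3.91 on the log2 scale (SE 0.43, adjusted p = 4.0e-11, edgeR) over the ONL and 5.07 (SE 0.46, adjusted p = 1.8e-13) over the GCL, given as a description because Bhlhe23 was tested only through its BCL libraries. The GCL-over-ONL value of -1.16 (SE 0.76, edgeR's adjusted p = 0.186) became -2.78 (adjusted p = 0.0207) without section 2, whose GCL library held 4 of the 5 UMIs. A GCL library with 0 UMIs allows a level of up to 3.82 CPM in section 1 and 4.61 CPM in section 3, taking 3 counts as the limit and counting error alone.

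Irx6 (chr8:93400916-93407584, plus strand, GRCm39) encodes an Iroquois homeodomain factor of cone bipolar cells that make OFF connections. Its levels in sections 1 to 4 were 20.6, 48.0, 5.08 and 44.5 CPM in the BCL, 7.49, 6.92, 6.85 and 6.45 CPM in the ONL and 54.8, 68.9, 63.0 and 66.6 CPM in the GCL. The GCL sections were the highest in all 4 sections and did not overlap either other layer. The BCL sections spread widely, at 29.5 ± 20.3 CPM (SD, n = 4) from 4, 10, 1 and 9 UMIs, and section 3 lay below every ONL section. In the GCL the mean was 63.3 ± 6.20 CPM from 169 UMIs, and in the ONL it was 6.93 ± 0.43 CPM. The BCL fell short of the GCL by a log2 fold change of -1.23 (SE 0.31, adjusted p = 9.1e-04, edgeR), and the GCL exceeded the ONL by 2.95 (SE 0.31, adjusted p = 6.0e-12). The BCL exceeded the ONL by 1.72 (SE 0.47, edgeR's adjusted p = 0.0027), a call that was lost without section 2 (1.38, adjusted p = 0.0725) and without section 4 (1.40, adjusted p = 0.0523). Its highest layer was not the one its bipolar label names, and that layer held ganglion cell markers at 1257% of their summed BCL level, 8 amacrine markers at 216% and bipolar effector markers at 5.87%. Their part in the Irx6 difference was not tested.

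Prdm8 (chr5:98315057-98336850, plus strand, GRCm39) encodes a PR-domain zinc-finger factor required for rod bipolar cells. It was read at 170.2, 119.9, 112 and 119 CPM in the BCL, 33.7, 33.2, 43.4 and 48.4 CPM in the ONL and 47.1, 58.4, 32.3 and 23.9 CPM in the GCL. Every BCL section was above every other section, and the ONL and GCL ranges lay over each other. The means were 130.2 ± 27.0, 39.7 ± 7.45 and 40.4 ± 15.4 CPM (SD, n = 4). The BCL exceeded the ONL by 1.44 on the log2 scale (SE 0.24, adjusted p = 1.3e-06, edgeR) and the GCL by 1.48 (SE 0.23, adjusted p = 2.8e-07), the smallest BCL-over-ONL difference among the 9 genes. The ONL and GCL differed by -0.04 (SE 0.23, edgeR's adjusted p = 0.887), with a 95% interval of -0.51 to 0.43. Prdm8 kept 30.5% of its BCL level in the ONL and 31.1% in the GCL, where Vsx1, Lhx4 and Bhlhe23 kept 5.26% to 8.39% in the ONL and 2.42% to 3.70% in the GCL. Irx6, the remaining bipolar factor, stood at 23.4% of its BCL level in the ONL and 214% in the GCL. A test of these shares between genes was not made.

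**Figure D2:**
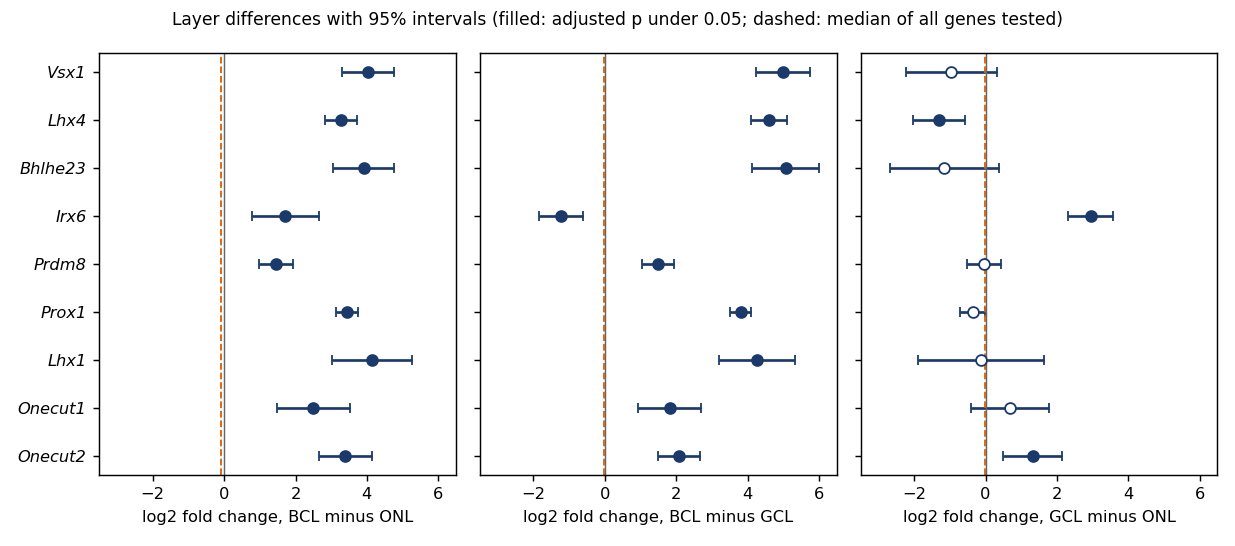
Log2 fold changes (horizontal axis) of the 9 genes between pairs of layers, from 1 edgeR fit over 12 libraries, with 95% intervals. Filled points have an adjusted p under 0.05, and the dashed line is the median of all 11324 genes tested. BCL-over-ONL values lie between 1.44 and 4.14, and only Irx6 lies below 0 in the BCL-over-GCL panel.

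Prox1 (chr1:189850232-189904637, minus strand, GRCm39) encodes the prospero-related homeodomain factor of horizontal cells, also made by bipolar cells and AII amacrine cells. It was the most abundant of the 9 genes in the BCL, at 1764, 1789.5, 1748 and 1488 CPM in sections 1 to 4. The ONL stood at 175, 78.8, 98.2 and 139 CPM and the GCL at 87.9, 135, 114 and 95.6 CPM. Those layers overlapped each other, and all BCL sections were several times higher. The mean was 1697 ± 141 CPM (SD, n = 4) in the BCL, 123 ± 42.8 CPM in the ONL and 108 ± 20.9 CPM in the GCL. On the log2 scale the BCL exceeded the ONL by 3.44 (SE 0.15, adjusted p = 9.6e-26, edgeR) and the GCL by 3.81 (SE 0.15, adjusted p = 2.3e-28). The GCL-over-ONL value of -0.36 (SE 0.17, edgeR's adjusted p = 0.0675) turned on single sections. It was 0.07 (adjusted p = 0.785) without section 1, -0.66 (adjusted p = 0.00225) without section 2 and -0.48 (adjusted p = 0.0342) without section 3. The default count filter of edgeR gave -0.39 (adjusted p = 0.0475).

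Lhx1 (chr11:84408803-84416368, minus strand, GRCm39) encodes a LIM homeodomain factor that places horizontal cells in their layer. It was found at 72.2, 52.8, 55.9 and 34.6 CPM in the BCL, at 4.99, 1.38, 0 and 0 CPM in the ONL and at 0, 3.00, 6.15 and 0 CPM in the GCL. In 4 of the 8 ONL and GCL libraries no UMI was seen, and the BCL sections stood apart from all of them. Its BCL mean was 53.9 ± 15.4 CPM (SD, n = 4) from 43 UMIs, against 5 UMIs in the ONL and 6 in the GCL. Fold changes of the BCL were 4.14 on the log2 scale (SE 0.56, adjusted p = 1.6e-08, edgeR) over the ONL and 4.26 (SE 0.53, adjusted p = 2.1e-09) over the GCL, a description again, since only the BCL libraries brought Lhx1 past the count filter. The GCL-over-ONL value of -0.13 (SE 0.88, edgeR's adjusted p = 0.909) was 1.72 (adjusted p = 0.223) without section 1 and -1.43 (adjusted p = 0.262) without section 3. The antisense gene Lhx1os covers 37.9% of the exonic bases of Lhx1 and had 6 UMIs over the 12 layer libraries. The study's notes give featureCounts at its default settings, which take no account of strand, so strand did not separate the pair where their exons overlap. How reads in these shared bases were counted was not checked. The overlaps are those of GENCODE vM39, while the counts used vM27. Shorter antisense overlaps were found for Prox1 (Prox1os, 5 UMIs), Prdm8 (A730035I17Rik, 10 UMIs), Irx6 (Gm45505, 3 UMIs) and Onecut1 (Gm68752, not listed in the layers). On the same strand, Gm20649, also not listed, covers 37.4% of the exonic bases of Onecut1, and Gm14343 (1 UMI) covers 5.71% of those of Bhlhe23.

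Onecut1 (chr9:74769118-74800594, plus strand, GRCm39) and Onecut2 encode cut-homeodomain factors that direct horizontal cell formation and are also made by ganglion cells. Onecut1 was at 20.6, 43.2, 45.7 and 34.6 CPM in the BCL, at 2.50, 5.53, 6.85 and 6.45 CPM in the ONL and at 10.2, 1.5, 16.9 and 6.83 CPM in the GCL of sections 1 to 4. Its BCL sections were above all others, and ONL and GCL overlapped. The BCL mean of 36.0 ± 11.3 CPM (SD, n = 4) exceeded the ONL by 2.50 on the log2 scale (SE 0.51, adjusted p = 6.8e-05, edgeR) and the GCL by 1.82 (SE 0.44, adjusted p = 6.8e-04). Between ONL and GCL the log2 fold change was 0.68 (SE 0.54, edgeR's adjusted p = 0.281), toward the GCL, with a 95% interval of -0.41 to 1.77.

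Onecut2 was at 92.8, 119.9, 158 and 109 CPM in the BCL, at 6.24, 8.30, 13.7 and 9.67 CPM in the ONL and at 26.8, 12, 52.3 and 8.54 CPM in the GCL of sections 1 to 4. The BCL sections did not overlap any other, while the GCL sections spread from the ONL level in sections 2 and 4 to several times that level in section 3. The BCL mean was 119.8 ± 27.5 CPM (SD, n = 4), the GCL mean 24.9 ± 19.9 CPM and the ONL mean 9.48 ± 3.15 CPM. The BCL exceeded the ONL by 3.39 on the log2 scale (SE 0.37, adjusted p = 3.9e-11, edgeR) and the GCL by 2.07 (SE 0.29, adjusted p = 4.9e-08). The GCL exceeded the ONL by 1.32 (SE 0.42, edgeR's adjusted p = 0.0051), a call lost without section 1 (1.09, adjusted p = 0.0515) and without section 3 (0.92, adjusted p = 0.0832). In the GCL, Onecut1 and Onecut2 were both highest in section 3 and next highest in section 1, while Irx6 was lowest in section 1. They kept 24.6% and 20.8% of their BCL level in the GCL. The summed ganglion cell markers of the GCL ranged from 6838 to 7655 CPM over its 4 sections and was 7088 CPM in section 3. Their part in the section differences was not tested.

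**Figure D3:**
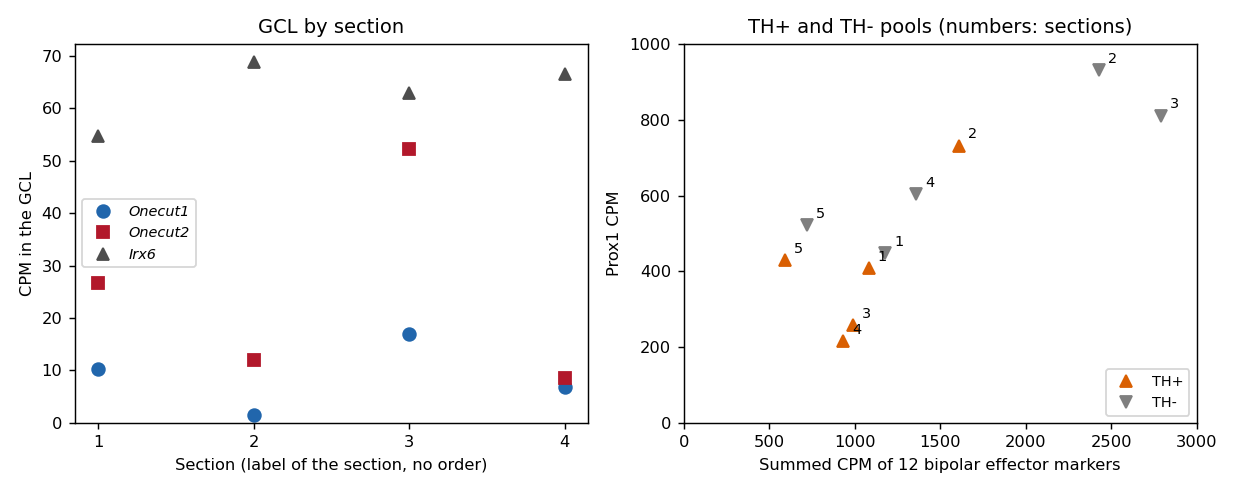
Left, CPM of Onecut1, Onecut2 and Irx6 in the 4 GCL libraries, in which Onecut2 runs from 8.54 to 52.3 CPM and Irx6 from 54.8 to 68.9 CPM. Right, Prox1 CPM against the summed CPM of 12 bipolar effector markers in the 5 TH+ and 5 TH- libraries, numbered by section, in which TH- section 2 has the highest Prox1 level, 932 CPM.

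Per kilobase of gene length, the order of the 9 genes in the BCL ran from Prox1 (202 ± 16.8 CPM per kilobase, SD, n = 4) through Lhx4 (50.7 ± 7.68), Vsx1 (37.6 ± 12.7), Bhlhe23 (31.6 ± 4.2), Prdm8 (26.8 ± 5.55), Lhx1 (13.2 ± 3.79), Irx6 (8.77 ± 6.04) and Onecut1 (8.76 ± 2.75) to Onecut2 (7.38 ± 1.70). Neighbours from Vsx1 to Prdm8 and from Lhx1 to Onecut2 differed by less than the larger of their SDs, and the steps from Prox1 to Lhx4, from Lhx4 to Vsx1 and from Prdm8 to Lhx1 were larger than it. Prox1 stood at the 99.5th percentile of the 17188 genes with a UMI and a length in the BCL, and Onecut2, whose gene length of 16234 bases is the longest of the 9, at the 68.6th. The GCL order began with Irx6 (18.8 ± 1.84 CPM per kilobase), Prox1 (12.9 ± 2.49) and Prdm8 (8.33 ± 3.17). From Onecut1 at 2.15 ± 1.57 downward, no neighbours differed by more than the larger SD. The ONL order began with Prox1 (14.6 ± 5.10), Prdm8 (8.17 ± 1.53) and Lhx4 (4.25 ± 1.40). Of the summed CPM of the 9 genes, Prox1 made 65.8% in the BCL, 55.2% in the ONL and 40.9% in the GCL, and Irx6 made 24.0% in the GCL against 1.15% in the BCL.

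**Figure D4:**
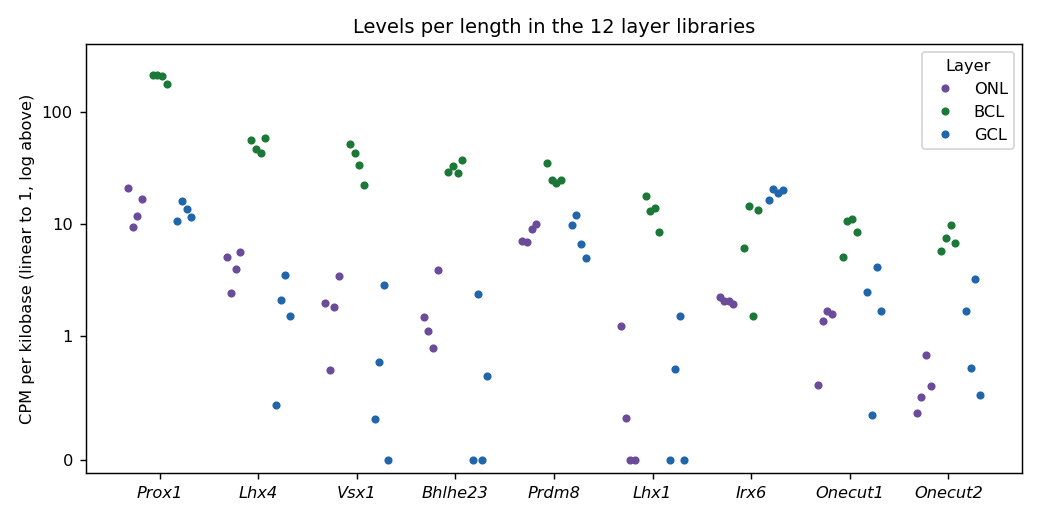
CPM per kilobase of gene length (vertical axis, linear to 1 and log above it) of each gene in the 12 layer libraries, with genes ordered by their BCL mean and 1 point for each section. Prox1 leads the BCL at 202 CPM per kilobase, and Irx6 is the gene whose GCL points lie above its BCL points.

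Across the 12 layer libraries, the genes most like each member were found by Pearson's r of log2 CPM, given as a description over libraries that come from only 3 layers. Prox1 was closest to Gpr179 (r = 0.995), a partner of the ON bipolar glutamate cascade, Gm44765 and Neurod4 (both 0.99). Bhlhe23 was close to Gpr179 and Grm6 (both 0.98), of which Grm6 is the glutamate receptor of ON bipolar cells. Vsx1 was closest to Smad3 (0.99), Sulf1 and Scgn (both 0.97), the last a calcium-binding protein of cone bipolar cells, and Lhx4 to Padi2, Sulf1 (both 0.99) and A730046J19Rik (0.98). Lhx1 was closest to Fat4 (0.98), Tacr3 and Lrrtm4 (both 0.97). Onecut1 and Onecut2 were each other's closest gene (0.94), followed by Pgghg (0.94) and Gm16551 (0.91) for Onecut1, and by Drd2 and Col27a1 (both 0.94) for Onecut2. Irx6 was closest to Rtl8c (0.97), Psmd2 and Nynrin (both 0.96), and Prdm8 to Gm43188, B3galt2 (both 0.95) and Adra2a (0.94). Within the 9 genes, Bhlhe23 with Prox1 and Vsx1 with Lhx4 had the highest r (both 0.97), and Lhx4 with Irx6 the lowest (-0.26).

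Other transcription factors of the same classes were read from lists of named genes. Of 10 other bipolar factors, 9 were tested. In the BCL, 7 were higher than in the ONL and 0 lower, beside 18.2% and 18.5% of all genes tested. These 7 include Fezf2 and Lhx3, which reached the count filter only through their BCL libraries, so a difference was built into their being tested. Neurod4, a basic helix-loop-helix factor of bipolar cells, was at 948 ± 84.6 CPM (SD, n = 4) in the BCL, 57.6 ± 18.7 CPM in the ONL and 32.2 ± 8.7 CPM in the GCL. Otx2, which photoreceptors also make, was at 504 ± 31.8 CPM in the BCL and 451 ± 37.0 CPM in the ONL and did not pass the test between them (log2 fold change -0.16, SE 0.13, edgeR's adjusted p = 0.353). Against the GCL, 7 of the 9, Fezf2 and Lhx3 again among them, were higher in the BCL and 0 higher in the GCL. Of all genes tested, 16.1% and 20.4% were called in these directions. The pair without a call, Bhlhe22 and Irx5, stood at 33.9 ± 11 and 23.6 ± 8.09 CPM in the GCL and at 31.2 ± 2.45 and 19.9 ± 14.6 CPM in the BCL. Irx5, like Irx6, belongs to the Iroquois family.

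Of 6 other horizontal cell factors, Ptf1a and Foxn4 were not listed. Of the 4 tested, 3 were higher in the BCL than in the ONL, beside 18.2% of all genes tested. Onecut3, the third ONECUT gene, was at 62.1 ± 13.7 CPM (SD, n = 4) in the BCL, 2.05 ± 2.48 CPM in the ONL and 1.96 ± 2.90 CPM in the GCL. Its BCL excess over the GCL was 4.71 on the log2 scale (SE 0.53, edgeR's adjusted p = 1.0e-10). That value is a description only, since Onecut3 reached the count filter only through its BCL libraries. The corresponding values of Onecut1 and Onecut2 were 1.82 and 2.07, and the difference between genes was not tested. Pax6 and Tfap2a, which amacrine cells also make, were higher in the GCL, with log2 fold changes of the BCL over the GCL of -1.30 (SE 0.15) and -2.03 (SE 0.25), and Tfap2b was not called (0.09, SE 0.17). Of 5 effector genes of horizontal cells, 3 were higher in the BCL than in the ONL and 1 lower, beside 18.2% and 18.5% of all genes tested. Against the GCL, 3 were higher in the BCL and 1 lower, beside 16.1% and 20.4%. Ndrg1 was higher in the ONL (log2 fold change of the BCL over the ONL -0.69, SE 0.12), and Slc32a1, the vesicular transporter of inhibitory transmitters that amacrine cells also make, was higher in the GCL (BCL over GCL -1.92, SE 0.29) and not called against the ONL. Calb1, a calcium-binding protein, was higher in the BCL than in the ONL (3.30, SE 0.36) and not called against the GCL (0.54, SE 0.24, edgeR's adjusted p = 0.0671). Septin4 was called higher in the BCL over both. Gja10, a gap junction subunit, was at 17.6 ± 12.2 CPM in the BCL, 0.917 ± 1.12 CPM in the ONL and 0.759 ± 0.876 CPM in the GCL. It was called higher in the BCL over each, at 3.65 (SE 0.85) and 3.97 (SE 0.83). These values are given as a description, because only its BCL libraries brought Gja10 past the count filter.

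Of 19 relatives in the same gene families, 15 were tested. Against the ONL, 7 were higher in the BCL and 2 lower (Prdm1 and Bhlhe41), beside 18.2% and 18.5% of all genes tested. Against the GCL, 6 were higher in the BCL and 4 lower (Irx2, Irx4, Lhx9 and Prdm16), beside 16.1% and 20.4%. Those 4 reached the count filter only with their GCL libraries, and Lhx3 and Onecut3, higher in the BCL, only with their BCL libraries. The differences of these genes were thus built into their being tested. The list overlaps with the lists above, for example in Bhlhe22, Irx5 and Onecut3. In the Iroquois family, Irx2 stood at 38.4 ± 12.1 CPM (SD, n = 4) in the GCL and 1.20 ± 2.40 CPM in the BCL, and Irx4 at 54.1 ± 10.6 CPM in the GCL with 0 UMIs in all 4 BCL libraries, which allows up to 3.74 CPM over that group. Irx6, at 63.3 CPM in the GCL, had 24 UMIs in the BCL. In the PR-domain family Prdm1, a photoreceptor factor, was at 78.1 ± 9.07 CPM in the ONL and 19.9 ± 6.80 CPM in the BCL, opposite in direction to Prdm8.

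In the amacrine experiment, 3 of the 9 genes, Prox1, Prdm8 and Lhx4, had enough UMIs to be tested and 0 of 3 passed edgeR's quasi-likelihood test, where 0.747% of 6021 genes were higher in TH+ and 0.083% higher in TH- libraries. Of the 3, Prox1 reached the count filter in each group alone, Prdm8 only with its TH- libraries and Lhx4 only with both groups together. At an unadjusted p under 0.05, 1 of the 3, Prox1, passed, as did 533 of all genes tested. DESeq2 called 37 genes in all, and edgeR called 50, or 148 with the section as a block. The split between genes higher in TH+ and higher in TH- changed with the setting, from 45 and 5 in the fit reported here to 96 and 52 with the block, 34 and 32 with no count filter and 51 and 22 without section 2. The ranges of TH+ and TH- overlapped for all 9 genes, where 0.93% of all genes tested were higher in TH+ and 1.35% higher in TH- without overlap.

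Prox1 was read at 408, 732, 259, 216 and 429 CPM in the TH+ libraries of sections 1 to 5 and at 447, 932, 811, 604 and 522 CPM in the TH- libraries. It was lower in TH+ in 5 of 5 sections, section 2 was the highest of both groups, and the groups overlapped. The means were 409 ± 203 CPM and 663 ± 203 CPM (SD, n = 5). The log2 fold change of TH+ over TH- was -0.60 (SE 0.22, edgeR's adjusted p = 0.304), and -0.66 (adjusted p = 0.00432) with the section as a block, so that the call depended on the pairing. It was also called without section 2 (-0.89, adjusted p = 0.0167) and with no count filter (-0.75, adjusted p = 0.0430), and over all alternatives the adjusted p ran from 0.00432 to 0.762. The summed bipolar effector markers were likewise lower in TH+ in 5 of 5 sections, at 594 to 1612 CPM against 719 to 2790 CPM, and the 3 AII amacrine markers in 4 of 5 sections, at 494 to 957 CPM against 855 to 1247 CPM. The 8 general amacrine markers were lower in TH+ in 5 of 5 sections, with means of 2760 ± 525 CPM and 3510 ± 700 CPM. The 8 Müller glia markers were lower in TH+ in 5 of 5 sections and the 9 rod markers in 0 of 5, at 14145 to 36242 CPM in TH+ and 8129 to 21493 CPM in TH-. Their part in the Prox1 difference was not tested.

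Prdm8 was at 40.8, 91.5, 70.6, 21.6 and 165 CPM in TH+ and at 72.3, 69.4, 74.4, 79.9 and 119.8 CPM in TH- libraries. Section 5 was highest in both groups, and TH+ values lay both above and below those of TH-. The means of 77.9 ± 55.6 and 83.2 ± 20.8 CPM (SD, n = 5) gave a log2 fold change of -0.15 (SE 0.40, edgeR's adjusted p = 0.957), with a 95% interval of -0.95 to 0.64. Lhx4 was at 40.8, 11.4, 0, 43.2 and 0 CPM in TH+, from 5 UMIs in all, and at 6.57, 63.6, 67.0, 49.9 and 0 CPM in TH-, from 31 UMIs. Its TH- values were high in sections 2, 3 and 4 and low in sections 1 and 5. The log2 fold change was -0.94 (SE 0.75, edgeR's adjusted p = 0.80). Summed bipolar effector markers in the TH- libraries were 1177, 2430, 2790, 1358 and 719 CPM in sections 1 to 5, so the 3 sections with high Lhx4 were also the 3 highest for these markers. In the TH+ libraries the markers stood at 1082, 1612, 988, 930 and 594 CPM, and the order differed, since Lhx4 was highest in sections 4 and 1 and the markers in section 2. Their part in the Lhx4 values was not tested.

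The other 6 genes stayed below the count filter. Vsx1 had 5 UMIs in TH+ and 15 in TH- libraries, 10 of them in TH- section 3, which also had the highest sum of bipolar effector markers. Bhlhe23 had 1 and 12 UMIs, Irx6 had 1 and 10, Onecut1 had 2 and 3, and Onecut2 had 2 and 16. Lhx1 had 0 UMIs in TH+ libraries, which allows up to 11.7 CPM over the 5 of them, and 2 UMIs in TH-, and Gja10 had 0 in both groups. These counts could not show a difference between TH+ and TH- cells at this depth.

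**Figure D5:**
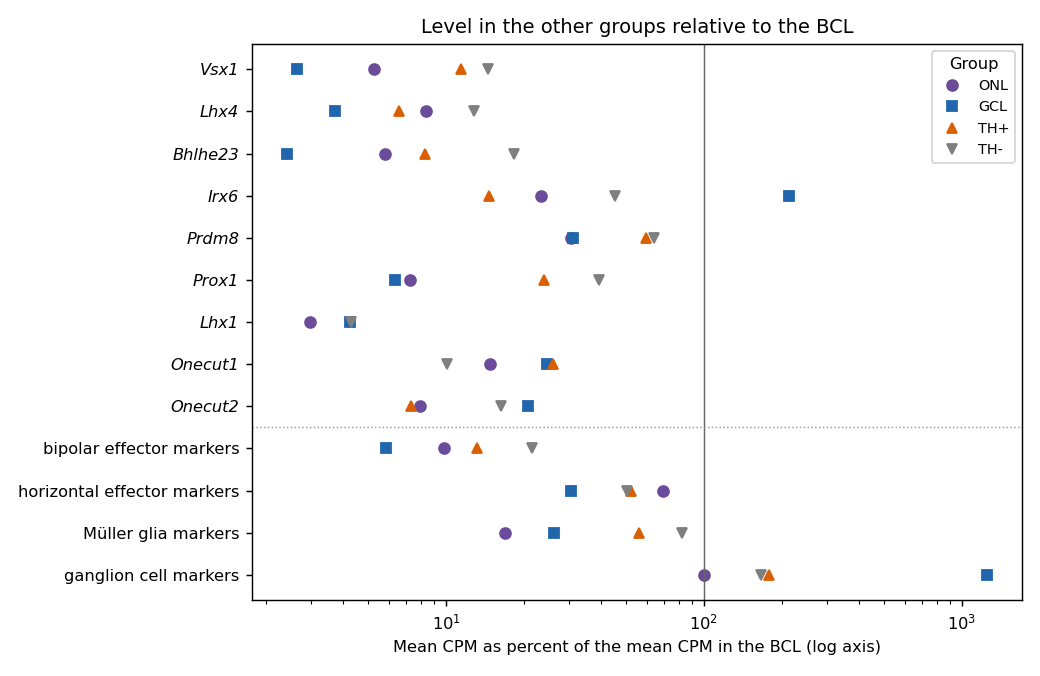
Mean CPM in the ONL, GCL, TH+ and TH- groups as percent of the mean BCL level (horizontal log axis, the line marks 100%) for the 9 genes and, below the dotted line, for 4 summed marker lists. Lhx1 is at 0 in TH+ and has no point there. Irx6 is the only one of the 9 genes past the line, at 214% in the GCL, and Prdm8 lies at 63.9% in TH-.

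Set across the 2 tables, which were deposited and scaled separately and whose difference was not tested, the TH- libraries held 39.1% of the BCL level of Prox1, 63.9% of that of Prdm8, 12.9% of that of Lhx4 and 14.6% of that of Vsx1, beside 21.5% for the bipolar effector markers. In TH+ libraries the shares were 24.1%, 59.8%, 6.57% and 11.4%, beside 13.2% for the markers. In TH- libraries 3 of the 9 genes, Prdm8, Prox1 and Irx6 (45.3%), had larger shares than the bipolar marker list and 6 had smaller ones. In TH+ libraries Irx6 (14.6%, from 1 UMI) and Onecut1 (26.1%, from 2 UMIs) also lay above it, as did Prdm8 and Prox1, and 5 genes lay below. The split depended on the list. Horizontal effector markers stood at 50.1% in TH- and 52.3% in TH+ libraries, with Prdm8 above and Prox1 and Irx6 below them in both groups.

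In 3 wells of mouse 3T3 cells, a fibroblast line barcoded in the same series in mixed culture with human cells, 8 of the 9 genes had 0 of 540880 UMIs, which allows up to 5.55 CPM over the wells. Onecut2 had 11 UMIs there, at 20.5 ± 1.42 CPM (SD, n = 3). Reads with the 3T3 barcode were aligned to the mouse genome alone, so any from human cells that carried this barcode were not set apart.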

How the data were processed

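RNA was reverse transcribed and barcoded in place, and each cDNA carries a UMI and a barcode. The authors extracted UMIs using UMI-tools, aligned reads using STAR to mm39 with GENCODE vM27, gave reads to genes by their exons using featureCounts, removed duplicate UMIs within a gene and sorted reads by exact barcode matches. Per the submitters' processing notes STAR was 2.7.9a and UMI-tools 1.1.1. The deposited counts are whole numbers of UMIs per gene, without normalization. Libraries held 30317 to 801105 UMIs, and intervals and limits for a count of 0 cover counting error only.

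CPM used the column total. Layers (12 libraries, 11324 genes) and amacrine cells (10 libraries, 6021 genes) were each tested in 1 fit of edgeR 4.0.16 (R 4.3.3), quasi-likelihood with TMM scaling, a filter that kept genes with 10 UMIs in total and with at least 5.86 CPM in 4 layer libraries or 27.0 CPM in 5 amacrine libraries (the level of 3 UMIs at the median depth), and adjusted p by Benjamini-Hochberg at 0.05 over all genes. Only rows of the 9 genes and of the lists were read, with the 3 most alike genes of each member (prior count 2). Some genes under this rule are not reported here. The members and lists were chosen with earlier results of these data known. Scaling by TMM shifted the median of all genes against column totals, so fold changes differ from ratios of CPM. Libraries of 1 section share its number by design. After removing group means, libraries of the same section correlated at 0.0116 to 0.0493 in the layers (12 pairs) and 0.0287 to 0.257 in the amacrine cells (5 pairs). The fits were tested on simulated data. Coordinates and promoters came from GENCODE vM39 on GRCm39. Exons of 6 of the 9 genes overlap exons of another gene, and featureCounts at its default settings ignores strand. Alternatives were DESeq2 1.42.0, other scalings and filters, the section as a block and single sections left out. Python 3.11.15, pandas 2.3.3 and matplotlib 3.10.9 were used.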

Additional observations from a re-analysis of the deposited data

Results flagged for a closer look

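Of 45 sets of 4 or 5 sections (9 genes in 5 groups), 7 had 1 section far from the rest by Dixon's test at 95%, a test that flags about 1 in 20 sets by chance when values are continuous. That rate does not hold for sets mostly at 0 UMIs, so the 7 of 45 were not read against it. In the BCL, Prdm8 was highest in section 1 (170.2 CPM, 33 UMIs) and Prox1 lowest in section 4 (1488 CPM, 301 UMIs). Without these sections, each BCL-over-ONL and BCL-over-GCL call of the 2 genes was made again. In the TH- libraries, Vsx1 was highest in section 3 (74.4 CPM, 10 UMIs) and Prdm8 in section 5 (119.8 CPM, 17 UMIs). In the TH+ libraries the values set apart rested on 1 or 2 UMIs, for Bhlhe23 in section 5 (33.0 CPM), Irx6 in section 4 (21.6 CPM) and Onecut1 in section 3 (47.1 CPM), with 0 UMIs in every other TH+ section.

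In the 3T3 wells, outside the retina comparisons, Onecut2 had 11 UMIs over 3 wells (3, 4 and 4), above the 3 that a count of 0 allows. Human reads that carried the 3T3 barcode were not set apart there.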

How the results depend on the processing

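Over 12 settings, 330 fold changes of the 9 genes were recalculated. Of the 329 with an adjusted p, 316 stayed on the same side of the threshold and 13 did not. The sign turned in 10 of the 330, of which 0 were called in either fit. Of 45 counts of genes called, 42 stayed within 1.5 times. Genes called between TH+ and TH- numbered 50, 148 with the section as a replicate block, and 29 to 73 with single sections left out, lowest without section 3, 31 without section 5 and highest without section 2. With single sections left out, the log2 fold change of GCL over ONL ran from -2.78 to -0.74 for Bhlhe23, from -1.82 to -0.73 for Lhx4, from -1.43 to 1.72 for Lhx1 (not called in any fit), from 0.92 to 1.58 for Onecut2, from -0.66 to 0.065 for Prox1 and from -2.15 to -0.40 for Vsx1. BCL over ONL ran from 1.38 to 2.02 for Irx6, and TH+ over TH- from -0.89 to -0.41 for Prox1. That Prox1 value was -0.66 with the block and -0.75 with no count filter, and its GCL-over-ONL value was -0.39 with edgeR's default filter. The cause was not tested. The section block changed no other call of the 9 genes, and in the layers it moved no count by over 1.5 times. Column totals in place of TMM, an alternative chosen after seeing the data, moved the median of all genes from -0.09 to 0.25 for BCL over ONL, from -0.0041 to 0.16 for GCL over ONL and from -0.02 to 0.15 for BCL over GCL, and changed no call of the 9. Calls for BCL and ONL then split 2889 to 1198, against 2056 to 2096 with TMM and 2083 to 1460 by DESeq2. TH+ libraries of 30317 to 87449 UMIs limited what could be seen for 6 of the 9 genes.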
